A study of Homo sapiens with 4 samples.

Results

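Caspases and the death receptors that feed them were measured as mRNA in 22Rv1 cells, a human prostate cancer line derived from a tumour that grew back after castration, after 12 h with the CDK9-directed compound JMC45. The set holds 8 genes of 63241 with values in the deposited table, chosen by gene symbol: the death receptors FAS, TNFRSF10A and TNFRSF10B, the initiator caspases CASP8, CASP9 and CASP2, the caspase-activating scaffold APAF1, and DIABLO, a mitochondrial protein that relieves caspase inhibition. Each symbol matched 1 Ensembl identifier in the table of gene names used, and a second DIABLO entry of an older annotation, described further on, was not counted as a member. The tested libraries came from cells given 40 nM JMC45, which the submitters describe as a CDK9 degrader and which their design text calls D45, and the others came from cells given the DMSO vehicle, with 2 libraries in each group. The submitters give no genetic change for either group, and the cells of both are a single established line.

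Separate routes lead to caspase activation. On the extrinsic route, ligands of the tumour necrosis factor family bind FAS or the TRAIL receptors TNFRSF10A and TNFRSF10B, whose cytoplasmic death domains recruit the adaptor FADD and with it the initiator CASP8. On the intrinsic route, mitochondria release cytochrome c, which assembles APAF1 into the apoptosome that activates CASP9, while released DIABLO displaces XIAP and related inhibitors from caspases. CASP2 is activated on a separate platform, the PIDDosome, and all routes can converge on a shared downstream phase of protein cleavage.

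The values are TPM, in which each gene's reads are scaled by its length and to the same total in every library, so levels of different genes can be set side by side. TPM keeps no sequencing depth, and the depth of the libraries is unknown. Whether the 2 libraries of a group represent separate cultures is not stated in the labels, so p-values reflect the spread between libraries alone, and that spread may be technical. Because TPM is a share, fewer transcripts per cell and a smaller fraction of a changed total cannot be told apart, nor can fewer cells be told apart from less RNA per cell. The genes at a TPM of at least 1 numbered 11629 and 11821 in the JMC45 libraries, against 14875 and 15295 in the vehicle libraries, and mitochondrially encoded genes held 26.6% and 29.3% of TPM in JMC45, against 20.1% and 20.4% in vehicle. CDK9 mRNA was at 4.93 and 3.78 TPM in JMC45 and at 20.15 and 22.45 TPM in vehicle, but since a degrader acts on protein, this mRNA does not check the labels. All 10 luminal prostate markers were detected, with a summed level of 688 to 710 TPM in JMC45 and 1460 to 1490 TPM in vehicle. Of 6 leukocyte markers none passed the filter on low values used below, and their sum was 0.8 to 0.91 TPM in JMC45 and 1.68 to 1.8 TPM in vehicle. The T-cell marker CD3E was at 0 in all 4 libraries, the sum of 3 endothelial markers was at most 0.01 TPM, and that of 5 fibroblast markers was 6.24 to 6.89 TPM in JMC45 and 7.18 to 7.68 TPM in vehicle.

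All 8 genes had a lower level in JMC45, and for each the JMC45 libraries lay below both vehicle libraries. Tested as log2(TPM + 1) with limma over all 14018 genes whose TPM averaged at least 1, all 8 passed at a Benjamini-Hochberg adjusted p below 0.05, and "fell" and "rose" are used below for genes that passed. These counts have to be read against the table as a whole, in which 80.7% of tested genes fell, 4.25% rose, and 85.7% had both JMC45 libraries below both vehicle libraries. The median over the 8 genes was -1.56 on the log2 scale, beside -1.10 over all genes tested. What differed among the 8 was the size of the decrease. DIABLO, CASP8, CASP2, CASP9, APAF1 and TNFRSF10A lay below the median of all genes, and FAS and TNFRSF10B lay above it. The margin above it was 0.16 for both, and for FAS this is smaller than the SE of its change, 0.17. Without the filter on low values the median of all genes was -0.30, and all 8 lay below it. FAS and TNFRSF10B stayed at -0.94 there, so only the median moved. It then took in genes averaging below 1 TPM, whose change log2(TPM + 1) understates. The 8 together summed to 37.2 and 36.3 TPM in JMC45, against 153 and 146 TPM in vehicle.

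**Figure D1:**
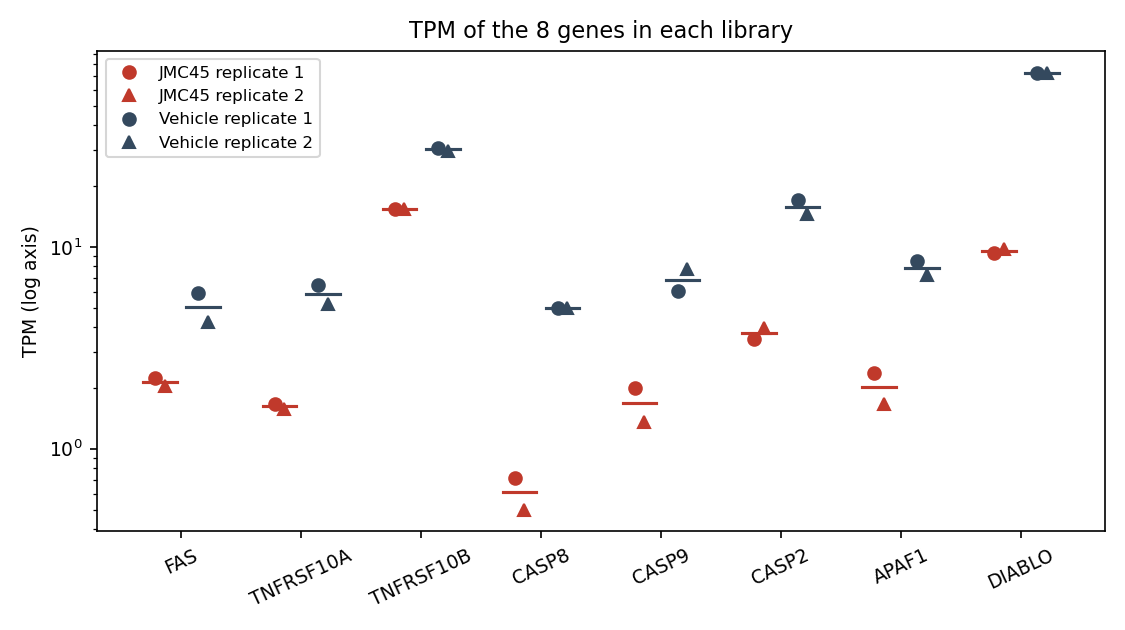
TPM of each gene in each library on a log axis, with death receptors at the left, initiator caspases in the middle and APAF1 and DIABLO at the right. Points are libraries and lines are group means of 2. TNFRSF10B led in both JMC45 libraries at 15.33 and 15.38 TPM, whereas DIABLO led in both vehicle libraries at 72.93 and 72.89 TPM.

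The start regions of 3 of the genes are printed here because they differ in sequence while their transcripts moved in the same direction: CASP8 as the initiator of the extrinsic route, CASP9 as that of the intrinsic route, and DIABLO as the gene with the largest log2 change. Each is the first window that the RefSeq promoter table (GRCh38.p14) lists for the gene, running from 250 bases before to 50 bases after an annotated start, written along the gene's own strand. Capitals mark the GC box GGGCGG or its reverse complement CCGCCC, the core of the site bound by SP-family factors. The CASP8 window lies on the plus strand at chr2:201233213-201233512, the CASP9 window on the minus strand at chr1:15524166-15524465, and the DIABLO window on the minus strand at chr12:122226519-122226818.
CASP8: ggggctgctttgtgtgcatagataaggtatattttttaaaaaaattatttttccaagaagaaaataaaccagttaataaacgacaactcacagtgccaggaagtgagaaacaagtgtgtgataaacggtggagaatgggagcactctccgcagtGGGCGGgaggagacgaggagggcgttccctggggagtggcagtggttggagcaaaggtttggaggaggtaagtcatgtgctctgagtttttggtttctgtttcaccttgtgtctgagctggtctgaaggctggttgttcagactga
CASP9: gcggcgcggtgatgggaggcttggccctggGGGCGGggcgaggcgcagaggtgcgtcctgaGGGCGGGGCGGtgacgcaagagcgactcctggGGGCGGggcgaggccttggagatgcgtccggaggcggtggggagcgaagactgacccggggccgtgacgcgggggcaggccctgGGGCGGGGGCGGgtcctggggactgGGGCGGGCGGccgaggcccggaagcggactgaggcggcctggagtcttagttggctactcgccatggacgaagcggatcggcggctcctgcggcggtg
DIABLO: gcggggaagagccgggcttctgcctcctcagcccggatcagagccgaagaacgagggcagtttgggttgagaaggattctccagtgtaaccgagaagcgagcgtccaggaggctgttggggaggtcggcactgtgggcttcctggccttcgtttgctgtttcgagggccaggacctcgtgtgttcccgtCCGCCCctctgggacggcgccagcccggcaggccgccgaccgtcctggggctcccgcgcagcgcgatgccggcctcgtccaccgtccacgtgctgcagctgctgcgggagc

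The CASP9 window held 8 GC boxes, with overlapping matches each counted, while the CASP8 and DIABLO windows held 1 each. G and C made up 46.3% of the CASP8 window, 76.0% of the CASP9 window and 68.3% of the DIABLO window. Among the 6 genes whose windows were searched (these 3 with CASP2, APAF1 and FAS), all 6 first windows held a GC box on either strand. The windows of TNFRSF10A and TNFRSF10B were not searched. Of the 35116 windows in the table, first and later ones alike, 45.0% held a GC box, so first windows alone are not a like comparison. CCAAT, searched with its reverse complement ATTGG, was in 2 of the 6, those of CASP2 and APAF1, and in 34.6% of all windows. TATAAA, searched with its reverse complement TTTATA, was in none of the 6 and in 11.5% of all windows. Over all 15 windows of these genes, 12 held a GC box, 6 held CCAAT and 1 held TATAAA, and the 3 without a GC box were 1 of CASP2 and 2 of CASP8, all of them later windows. No matches to different motifs overlapped in the 6 first windows. A match is a description of the letters, not a binding site. CASP2 and CASP9 have 2 windows each in the table, CASP8 and FAS have 3, DIABLO has 4 and APAF1 has 1, and which start the cells used cannot be read from gene-level TPM.

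Among the 3 death receptors of the set, TNFRSF10B was the most abundant and kept the largest share of its vehicle level. It is a receptor for TRAIL that signals death and was at 15.33 and 15.38 TPM in JMC45, against 31.04 and 29.7 TPM in vehicle. Its log2 change was -0.94 (SE 0.08, limma adjusted p = 9.03e-05), and its mean level was 50.6% of vehicle. The libraries of each group lay close together and the groups were far apart. TNFRSF10A, the other death-inducing TRAIL receptor, was at 1.67 and 1.58 TPM in JMC45 and at 6.46 and 5.22 TPM in vehicle. It fell to 27.8% of vehicle, a change of -1.38 on the log2 scale (SE 0.15, limma adjusted p = 0.00025). FAS, the receptor for FAS ligand, was at 2.23 and 2.04 TPM in JMC45 and at 5.88 and 4.24 TPM in vehicle, so the vehicle libraries were further from each other than the JMC45 ones. Its log2 change was -0.94 (SE 0.17, limma adjusted p = 0.00272), with 42.2% of the vehicle level left. The median tested gene had 38.7% left by the same ratio of group means. The 3 receptors together summed to 19.2 and 19.0 TPM in JMC45 and to 43.4 and 39.2 TPM in vehicle, which is 46.3% of vehicle. TNFRSF10B made up most of this sum, and FAS and TNFRSF10A without it summed to 34.5% of vehicle.

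All 3 initiator caspases fell, their sum reaching 6.22 and 5.83 TPM in JMC45 against 28.0 and 27.2 TPM in vehicle, which is 21.8% of vehicle. CASP8, which FADD recruits to ligand-bound receptors, was at 0.72 and 0.5 TPM in JMC45 and at 4.96 and 4.97 TPM in vehicle. Both JMC45 libraries were below 1 TPM, a level no other of the 8 genes reached. The log2 change was -1.89 (SE 0.15, limma adjusted p = 6.22e-05), but log2(TPM + 1) understates the change of a gene at this level. As a ratio of group means CASP8 was 8.14-fold lower, the largest ratio among the 8, and 10.4% of tested genes had a lower ratio. With a pseudocount of 0.1 in place of 1 its log2 change was -2.85 (SE 0.26). CASP9, the apoptosome's caspase, was at 2.0 and 1.36 TPM in JMC45 and at 6.03 and 7.74 TPM in vehicle, a change of -1.56 on the log2 scale (SE 0.19, limma adjusted p = 0.000369). CASP2, the caspase of the PIDDosome, was at 3.5 and 3.97 TPM in JMC45 and at 17.01 and 14.51 TPM in vehicle, a change of -1.82 on the log2 scale (SE 0.13, limma adjusted p = 4.45e-05). CASP9 and CASP2 were left with 24.4% and 23.7% of their vehicle levels.

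DIABLO, the most abundant of the 8 in vehicle, was at 9.33 and 9.8 TPM in JMC45 and at 72.93 and 72.89 TPM in vehicle. Its log2 change of -2.81 (SE 0.08, limma adjusted p = 9.2e-06) was the largest of the 8, and 2.67% of tested genes had a lower one. DIABLO was 7.62-fold lower as a ratio of group means. It made up 25.1% and 27% of the summed TPM of the 8 genes in the JMC45 libraries, against 47.7% and 49.8% in the vehicle libraries, while TNFRSF10B made up 41.3% and 42.4% in JMC45 and 20.3% in both vehicle libraries. APAF1, the apoptosome scaffold, was at 2.38 and 1.67 TPM in JMC45 and at 8.5 and 7.22 TPM in vehicle, a change of -1.56 on the log2 scale (SE 0.17, limma adjusted p = 0.000244) that left 25.8% of the vehicle level. The genes whose values over the 4 libraries lay nearest to those of DIABLO, by Euclidean distance of log2(TPM + 1) centred per gene, were MYD88 (distance 0.0338), DNAJA1 (0.036) and KPNA2 (0.0382). With 4 libraries in 2 groups this likeness is little more than an equal size of change.

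The order of levels changed between the groups. In JMC45 the order by mean was TNFRSF10B, DIABLO, CASP2, FAS, APAF1, CASP9, TNFRSF10A and CASP8. FAS, APAF1, CASP9 and TNFRSF10A, with means of 1.62 to 2.13 TPM, overlapped with their neighbours in that order, and CASP8 at 0.61 ± 0.156 TPM (SD, n = 2) lay below all of them. In vehicle the order was DIABLO, TNFRSF10B, CASP2, APAF1, CASP9, TNFRSF10A, FAS and CASP8. The 5 genes from APAF1 to CASP8, with means of 4.96 to 7.86 TPM, overlapped with their neighbours there.

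The direction of FAS and TNFRSF10B depended on how the libraries were scaled. Median-of-ratios scaling and quantile normalization both assume that most genes do not change, and they placed the median tested gene at -0.02 and 0.02, where deposited TPM placed it at -1.10. TNFRSF10B rose by 0.35 (SE 0.10, limma adjusted p = 0.0145) after median-of-ratios scaling and by 0.25 (SE 0.08, adjusted p = 0.03) after quantile normalization. FAS had values of 0.09 and 0.34 there and did not pass (limma adjusted p = 0.554 and 0.0611). DIABLO (-1.52 and -1.74), CASP8 (-1.06 and -0.77) and CASP2 (-0.64 and -0.45) fell under both. CASP9, APAF1 and TNFRSF10A fell after median-of-ratios scaling (-0.54, -0.49 and -0.37) and did not pass after quantile normalization (-0.28, -0.23 and -0.12). Thus 6 of the 8 fell and 1 rose on median-of-ratios values, where 35.5% of tested genes fell and 34.9% rose, and 3 fell and 1 rose after quantile normalization, where 32.8% fell and 33.6% rose. Holding mitochondrially encoded TPM equal in all libraries, which placed the median gene at -1.47, gave 8 that fell and none that rose, where 90.5% of tested genes fell and 1.29% rose. Without a spike-in to anchor them, the values do not say which scaling is closer to amounts per cell.

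**Figure D2:**
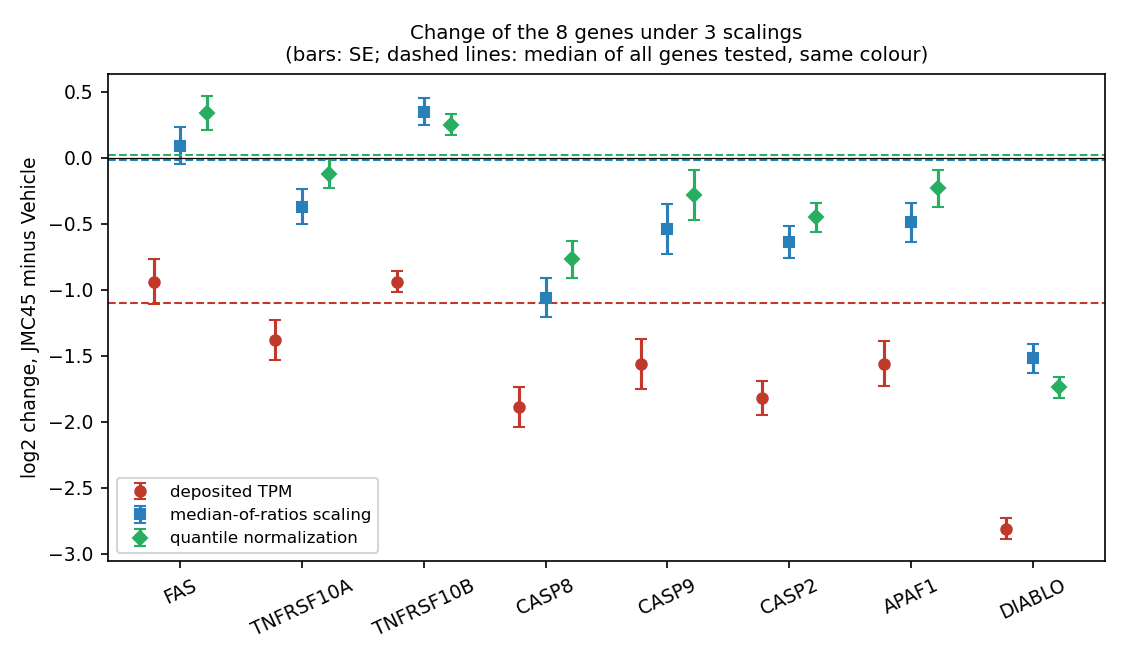
Log2 change of each gene, JMC45 minus vehicle, with its SE, on deposited TPM (red circles), after median-of-ratios scaling (blue squares) and after quantile normalization (green diamonds), with the median of all genes tested as dashed lines. FAS and TNFRSF10B lay above the median line and the other 6 below it under all 3, and TNFRSF10B was at -0.94 on TPM and at 0.35 and 0.25 under the other scalings.

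Ratios between genes in the same library do not depend on a scaling by 1 factor per library, such as median-of-ratios, whereas quantile normalization works by rank and can change them. Of 7 pairs compared, the groups did not overlap in 5. How often other gene pairs separate was not computed, so this count has no background to be read against. The CASP8/CASP9 ratio was 0.36 and 0.368 in JMC45, against 0.823 and 0.642 in vehicle, so CASP8 stood at a lower level relative to CASP9. The TNFRSF10A/TNFRSF10B ratio was 0.109 and 0.103 in JMC45, against 0.208 and 0.176 in vehicle. The DIABLO/APAF1 ratio was 3.92 and 5.87 in JMC45 and 8.58 and 10.1 in vehicle. DIABLO thus lost more of its level than the scaffold gene did. The DIABLO/XIAP ratio, which sets DIABLO against the main inhibitor it displaces, was 1.37 and 1.35 in JMC45 and 4.1 and 5.73 in vehicle, a log2 difference of -1.83. The CFLAR/CASP8 ratio, which sets CASP8 against the catalytically inactive relative that competes with it for FADD, was 5.21 and 6.2 in JMC45 and 2.36 and 2.41 in vehicle, a log2 difference of 1.25. CASP2/CASP9 (1.75 and 2.92 in JMC45, 2.82 and 1.87 in vehicle) and FAS/TNFRSF10B (0.145 and 0.133 in JMC45, 0.189 and 0.143 in vehicle) overlapped between groups. The two-sided exact permutation test gave p = 0.33 for each of the 5 pairs, the smallest value that 2 libraries against 2 allow, or 0.46 adjusted over the 7, so none can pass a threshold of 0.05 in this design.

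**Figure D3:**
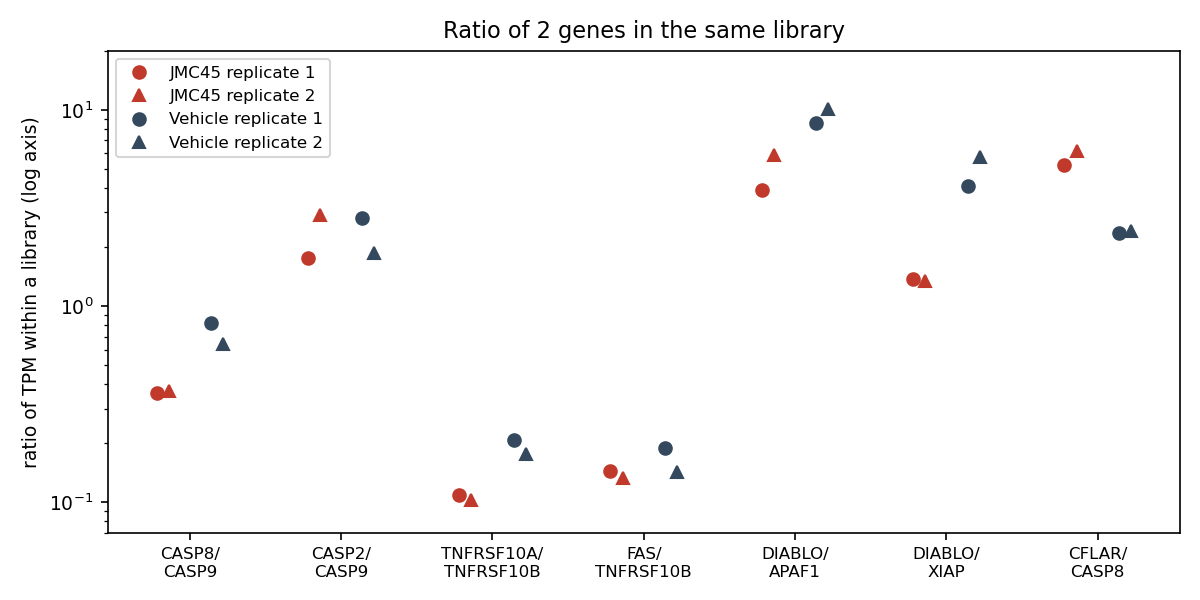
Ratio of the TPM of 2 genes within each library, for 7 pairs, on a log axis. The JMC45 points lay below the vehicle points for CASP8/CASP9, TNFRSF10A/TNFRSF10B, DIABLO/APAF1 and DIABLO/XIAP, above them for CFLAR/CASP8 (5.21 and 6.2 against 2.36 and 2.41), and the groups overlapped for the other pairs.

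Around the receptors, the adaptor FADD had a larger decrease than any of the 3 receptors. Of 14 death receptor adaptors and inhibitors 12 were tested, of which 11 fell and none rose, where 80.7% of all tested genes fell and 4.25% rose, with a median of -1.69 beside -1.10 over all genes. On median-of-ratios values 7 fell and 1 rose, where 35.5% of all tested genes fell and 34.9% rose. These shares also stand behind the counts of the lists that follow. FADD, the adaptor shared by FAS and the TRAIL receptors, was at 1.13 and 0.94 TPM in JMC45 and at 15.44 and 17.76 TPM in vehicle. Its log2 change was -3.11 (SE 0.14, limma adjusted p = 1.24e-05), and it also fell on median-of-ratios values (-2.10). DAXX, a FAS-binding protein, fell by 2.65, RIPK1, a kinase that receptors of this family recruit, fell by 2.63, and FAIM, an inhibitor of FAS-induced death, fell by 2.28. CFLAR fell by 1.54. PEA15, a death effector domain protein, was the single tested member that did not pass and was chosen after its value was seen: it was at 170.43 and 171.07 TPM in JMC45 and at 176.94 and 180.93 TPM in vehicle. It rose by 1.28 after median-of-ratios scaling (limma adjusted p = 9.25e-05) and by 0.33 after quantile normalization (adjusted p = 0.0041).

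Of 12 ligands, other receptors and decoys only 4 were tested, of which 3 fell and 1 rose on TPM. On median-of-ratios values 2 fell and 2 rose. FAS ligand (FASLG) was listed at 0 in all 4 libraries, and TRAIL (TNFSF10) was at 0.09 and 0 TPM in JMC45 and at 0 in both vehicle libraries. TNFRSF1A, a receptor for tumour necrosis factor, fell to 3.34 and 5.15 TPM in JMC45, against 33.45 and 32.04 TPM in vehicle, a log2 change of -2.71. TNFRSF21 and TNFRSF25, also death domain receptors, fell by 1.75 and 0.58 on TPM, and TNFRSF25 rose by 0.50 after median-of-ratios scaling. TNFRSF10D, a decoy receptor that binds TRAIL without passing on a death signal, was the one that rose, at 6.59 and 6.7 TPM in JMC45 and 5.16 and 4.99 TPM in vehicle. Its log2 change of 0.33 (SE 0.12, limma adjusted p = 0.035) was lost when any 1 of the 4 libraries was left out (0.31 to 0.35), and the value was -0.06 once mitochondrially encoded TPM was held equal. TNFRSF10D rose by 1.47 after median-of-ratios scaling (limma adjusted p = 7.4e-05) and by 1.62 after quantile normalization (limma adjusted p = 0.000209). In both JMC45 libraries TNFRSF10D stood above TNFRSF10A, whereas in vehicle it stood below TNFRSF10A in replicate 1 and replicate 2 alike.

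Of the PIDDosome partners of CASP2, CRADD, the adaptor, fell by 1.75. PIDD1, its scaffold, chosen after its value was seen, was at 5.29 and 4.41 TPM in JMC45 and at 6.03 and 4.85 TPM in vehicle and did not pass (limma adjusted p = 0.435), but after median-of-ratios scaling it rose by 0.99.

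On the mitochondrial side the listed genes fell, with a median closer to 0 than that of all genes. All 10 genes of the apoptosome and mitochondrial release fell, where 80.7% of all tested genes did, with a median of -0.81 beside -1.10 over all genes. On median-of-ratios values 2 fell and 4 rose, where 35.5% and 34.9% of all tested genes did. CYCS, which encodes cytochrome c, was at 463.97 and 447.9 TPM in JMC45 and at 600.88 and 602.46 TPM in vehicle, a log2 change of -0.40. The 2 other scalings disagreed on CYCS. It rose by 0.95 after median-of-ratios scaling (limma adjusted p = 0.000349) but fell after quantile normalization (-0.23, limma adjusted p = 0.00539). The largest decreases were those of BAK1, a pore-forming effector (-2.17), HTRA2, a protease that like DIABLO binds inhibitors of apoptosis (-1.78), ENDOG, a mitochondrial nuclease (-1.50), and HSPA4, a chaperone (-1.34). Of 7 inhibitor of apoptosis genes 5 were tested and 4 fell, with a median of -0.89, but on median-of-ratios values none fell and 3 rose. XIAP, which binds and inhibits CASP9, was at 6.83 and 7.24 TPM in JMC45 and at 17.8 and 12.73 TPM in vehicle, and it fell to 46.1% of vehicle. BIRC6 (-1.35), BIRC2 (-0.89) and BIRC5 (-0.69) were the others that fell, but on median-of-ratios values BIRC2 rose by 0.38 and BIRC5 by 0.64. After quantile normalization BIRC2 rose by 0.38, while BIRC5 was at 0.05 and did not pass. NAIP, chosen after its value was seen, had a value of 0.13 on TPM (limma adjusted p = 0.472). It rose by 1.06 on median-of-ratios values (limma adjusted p = 0.00083) and by 1.32 after quantile normalization (limma adjusted p = 0.000991). NAIP is uncertain, since the locus holds near-identical copies. All 10 genes of the caspase substrate list fell, where 80.7% of all tested genes did, with a median of -1.39. Leading it were the lamin LMNB1 (-2.29), the apoptotic nuclease DFFB (-1.83), the kinase ROCK1 (-1.81) and the channel PANX1 (-1.78). Of these, DFFB is on the list as the nuclease bound by the substrate DFFA. On median-of-ratios values 6 of the 10 fell and 2 rose, where 35.5% and 34.9% of all tested genes did.

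**Figure D4:**
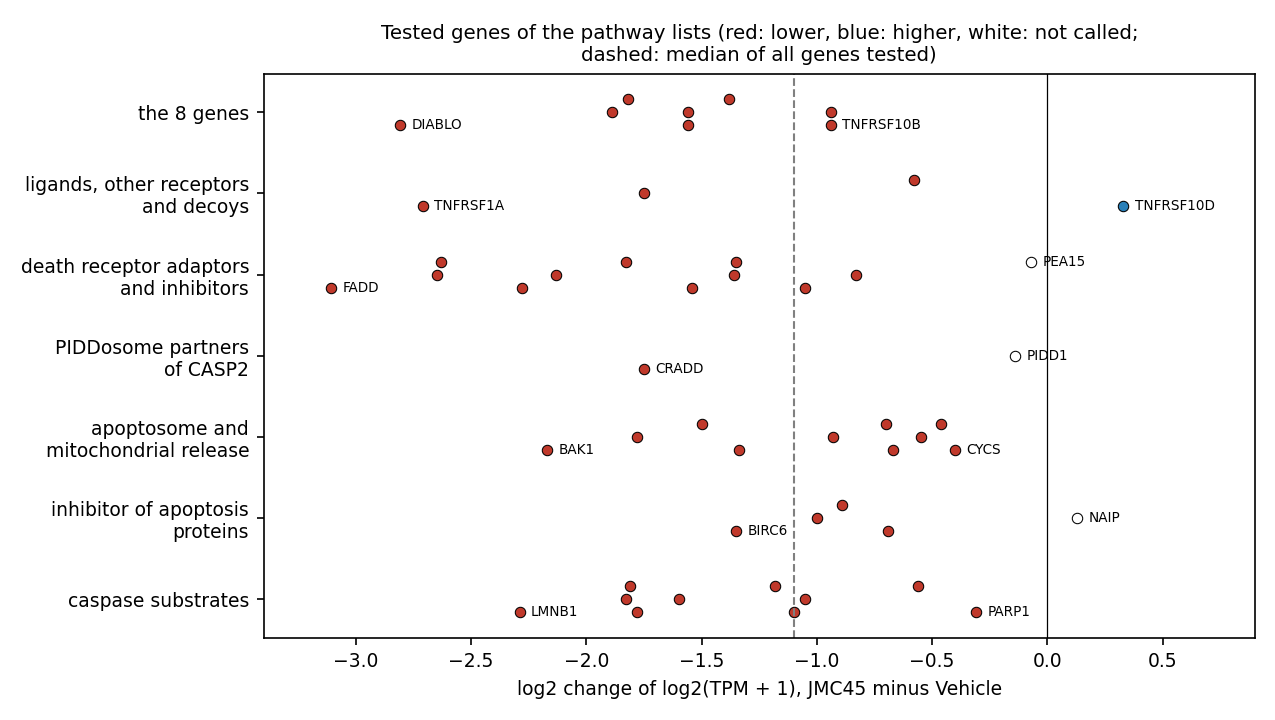
Log2 change of log2(TPM + 1), JMC45 minus vehicle, for each tested gene of the 8 and of the 6 pathway lists. Of 43 tested list genes 39 fell (red), 1 rose (blue) and the remainder did not pass (white), where 80.7% of all tested genes fell. On median-of-ratios values, not plotted, 18 of the 43 fell and 13 rose. The dashed line is the median of all genes tested at -1.10, with FADD furthest to the left and TNFRSF10D furthest to the right.

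The libraries were made with a stranded kit, but the sources used here do not say whether counting used strand. Whether reads of genes that overlap on opposite strands were told apart in the deposited values is therefore unknown. In GENCODE release 29, used for names and overlaps, FAS shares 758 bp at its start with ACTA2 on the other strand, which was at 2.05 and 2.69 TPM in JMC45 and at 1.71 and 1.43 TPM in vehicle and did not pass (log2 change 0.39, limma adjusted p = 0.0689). TNFRSF10A overlaps its antisense gene TNFRSF10A-AS1 by 224 bp and its divergent transcript TNFRSF10A-DT (1 of 2 entries so named) by 656 bp, and these fell by 1.76 and 1.42. TNFRSF10B overlaps RHOBTB2 by 67 bp, which fell by 2.20, and the unnamed antisense gene ENSG00000246130 by 951 bp, which was at 0.04 and 0.03 TPM in JMC45 and at 0.02 and 0 TPM in vehicle. DIABLO lies within a second gene entry of the same name on the same strand. That entry was at 0 and 0.04 TPM in JMC45 and at 0.58 and 0.39 TPM in vehicle. AC048338.1, a protein-coding entry on the same strand, overlaps DIABLO by 18790 bp. It was at 0 TPM in both JMC45 libraries and at 0.15 and 0.91 TPM in vehicle. How reads were divided between these entries is uncertain. B3GNT4 overlaps DIABLO by 1290 bp on the other strand and was at 0.95 TPM in both JMC45 libraries and at 0.95 and 2.46 TPM in vehicle. ANKS1B overlaps APAF1 by 8977 bp on the other strand. Its levels were 0.45 and 0.67 TPM in JMC45 and 0.99 and 1.11 TPM in vehicle. Overlapping genes at 0 TPM in every library are left out here. Of 3 neighbours that start within 1000 bp on the other strand without overlap, 2 fell: IKBIP, 28 bp from the start of APAF1, fell by 1.79, and DNAJC16, 279 bp from that of CASP9, fell by 1.29. The other, TMEM139-AS1, 835 bp from the start of CASP2, was at 0.1 and 0.49 TPM in JMC45 and at 0.54 and 0.46 TPM in vehicle and was too low to be tested. The part of these overlaps in the values was not tested. The genes span 18906 bp (DIABLO) to 90293 bp (APAF1), around a median of 27761 bp over the 13475 tested genes with an entry, and DIABLO and CASP2, at 18906 and 19482 bp, were the shortest of the 8.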

How the data were processed

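Poly(A)-selected RNA was sequenced from 2 JMC45 and 2 vehicle libraries of 22Rv1 cells with a stranded kit, per the labels' protocols. The authors deposited TPM for each Ensembl gene, per the file headers. Per the submitters' processing notes, fastp, HISAT2 and StringTie were used, with neither versions nor roles stated. No source used here gives the build or annotation. Control columns were matched to the vehicle libraries by name and number. Of 63291 lines, 50 had no values and were left out.

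Log2(TPM + 1) was tested for genes averaging at least 1 TPM by limma (version 3.58.1, R 4.3.3), two-sided, using an intensity trend without a replicate block, adjusted by Benjamini-Hochberg over all 14018 genes, at a threshold of 0.05. The test was also run on simulated data in which few genes changed. That setting differs from these data, where most genes fell, so it does not check the test under such a shift. Ratios used a two-sided exact permutation test (scipy 1.17.1). Summaries were computed in Python 3.11.15 (numpy 2.4.6, pandas 2.3.3), and figures in matplotlib 3.10.9.

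Named in the text are all 8 genes and, per pathway list, up to 4 passing genes with the largest change, any that passed in the opposite direction, the genes of the ratio pairs, CDK9, genes named as a member symbol with an antisense or divergent suffix, and the 3 genes nearest to the one with the largest change. Other neighbours at the same loci, and genes marked so in the text, were picked with their values in view. CYCS, FASLG, TNFSF10 and the marker CD3E were likewise named outside these rules. The members and lists were chosen with earlier results of these data known. A list of further family members is not reported here. Alternatives changed the pseudocount (0.1), the filter (none, or an average of 5 TPM), the scaling (median-of-ratios, quantile, mitochondrially encoded genes removed, or their total held equal), the trend (none) and the design (replicate block), or left out 1 library in turn.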

Additional observations from a re-analysis of the deposited data

How the results depend on the processing

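All 8 genes fell in every setting in which they were tested except median-of-ratios scaling and quantile normalization. A mean TPM of at least 5 left 3 of them tested, and all 3 fell, 2 of them below the median of all genes. Without the filter on low values, where the median of 31100 genes was -0.30, all 8 lay below the median, against 6 of 8 in every other setting that tested all 8. The log2 changes of the 8 were the same there as with the filter, and only the median moved. Median-of-ratios scaling gave 6 that fell and 1 that rose, and quantile normalization 3 and 1. FAS changed sign there (0.09 and 0.34), as did TNFRSF10B (0.35 and 0.25). Quantile normalization ended the calls of CASP9 (-0.28), APAF1 (-0.23) and TNFRSF10A (-0.12). The cause was not tested.

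Over all genes 11311 fell and 596 rose on TPM, against 4981 and 4888 after median-of-ratios scaling and 4603 and 4716 after quantile normalization, and 181 rose with the mitochondrially encoded total held equal. Ligands, other receptors and decoys that rose numbered 2 under both scalings, and 0 with that total held equal (TNFRSF10D at -0.06) or without any 1 library (0 to 0). Those that fell and rose after median-of-ratios scaling were 7 and 1 adaptors, 2 and 4 apoptosome genes and 0 and 3 inhibitors of apoptosis. Of the caspase substrate list 6 fell and 2 rose under that scaling. After quantile normalization the counts were 6 and 2 adaptors, 5 and 3 apoptosome genes, and 0 and 2 inhibitors of apoptosis. In the caspase substrate list, quantile normalization gave 7 that fell and 1 that rose. A mean TPM of at least 5 gave 6 that fell there, which were all that this filter left tested. Of the PIDDosome partners 1 rose under both scalings, and 2 fell with the mitochondrially encoded total held equal.

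Leaving out each library moved the CASP2/CASP9 log2 difference between -0.39 and 0.34, around a value of -0.02. Deviations of same-numbered libraries from their group means correlated at -0.0471 across genes, so the values showed no shared deviation. Whether the replicate numbers pair the libraries is not stated in the labels. With the replicate block 8 of the 8 genes fell, as did 11380 of all genes, while 613 rose. Depth is unknown from TPM, so low levels such as that of CASP8 carry no counting interval.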
